A study of Mus musculus with 12 samples.

Results

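Comp encodes cartilage oligomeric matrix protein, a secreted glycoprotein of the extracellular matrix. It was followed as 1 transcript probe set, ENSMUST00000003659_at, of 41115 on the arrays. It was chosen from earlier results of these same data, as the transcript with a high level in mural granulosa cells of stimulated mice and a low level in the other groups. Its levels, differences and ranks are therefore a description, and no test is attached to them. The deposited table holds transcript identifiers without gene names, so the name Comp came with the choice of the transcript and was not checked against an annotation here. No other row of the table held the same values.

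Granulosa cells are the somatic cells of the ovarian follicle. Mural granulosa cells line the follicle wall, and cumulus cells surround the oocyte. The comparison was of 4 groups with 3 arrays each, namely mural cells of stimulated mice, mural cells of unprimed mice, cumulus cells of stimulated mice and cumulus cells of unprimed mice. All mice were B6SJLF1 animals 22 days old. Stimulated mice had received 5 IU of equine chorionic gonadotropin (eCG, named PMSG in the group labels) by intraperitoneal injection 44 hours before collection, and unprimed mice had received none. Each array stood for a pool of 5 mice, and each cumulus sample came from 200 complexes of cumulus cells and oocyte that were completely enclosed by tightly packed cumulus. The oocytes were discarded, and the mural cells were taken at the same time as clumps of roughly equal mass. The labels describe the arrays of a group as biological replicates.

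Comp belongs to the thrombospondin family, and the RefSeq table of assembly GRCm38.p6 lists TSP5 as its other name. The protein assembles from several identical chains and binds collagens, and it is best known from cartilage and tendon, where it takes part in the assembly of collagen fibrils. In humans, mutations of the gene cause skeletal dysplasias. In the same RefSeq table Comp lies on chromosome 8 between Upf1, a factor of nonsense-mediated RNA decay, and Crtc1, a coactivator of CREB, and it overlaps the long noncoding RNA model Gm51533. Where on the transcript the array's probes lie is not stated in the labels or the file. Equine chorionic gonadotropin acts on granulosa cells mainly through the receptor for follicle-stimulating hormone, and it brings growing follicles to the preovulatory stage.

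Comp stood at a high level in mural cells of stimulated mice and at a low level in the other 3 groups. In stimulated mural cells its log2 values were 13.28, 12.83 and 13.46 on the arrays of replicates 1, 2 and 3. In unprimed mural cells they were 6.36, 7.30 and 6.69. In stimulated cumulus cells they were 7.59, 6.57 and 6.65. In unprimed cumulus cells they were 6.75, 6.50 and 6.40. The stimulated mural arrays stood apart from the other 9 arrays without overlap, while the other 3 groups overlapped each other.

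**Figure D1:**
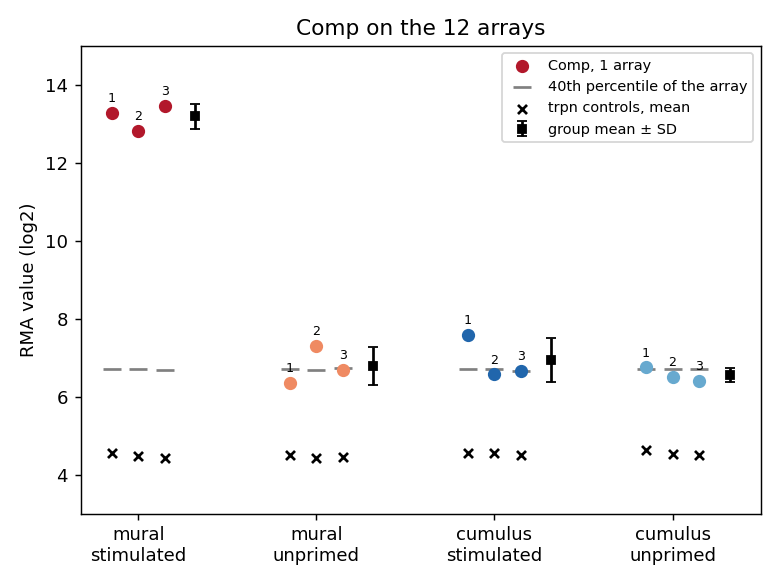
Log2 value of Comp (y axis) on each of the 12 arrays, by group (x axis). Numbered points are replicates, squares with bars are group means ± SD (n = 3), grey dashes mark the 40th percentile of transcripts on that array and crosses the mean of the trpn control probe sets. The 3 stimulated mural arrays lie between 12.83 and 13.46, and the other 9 arrays between 6.36 and 7.59.

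The group means followed the same division. Comp averaged 13.19 ± 0.33 in stimulated mural cells (SD, n = 3 in every group), 6.78 ± 0.48 in unprimed mural cells, 6.94 ± 0.57 in the stimulated cumulus group and 6.55 ± 0.18 in the unprimed cumulus group. From high to low the order was stimulated mural, stimulated cumulus, unprimed mural and unprimed cumulus. Below the first place, neighbours in this order did not differ beyond their spread. Stimulated cumulus minus unprimed mural cells gave 0.15 and unprimed mural minus unprimed cumulus cells gave 0.24 on the log2 scale, against a pooled SD of 0.42 within groups.

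Comp was higher in stimulated than in unprimed mural cells by 6.41 ± 0.34 on the log2 scale (SE from the pooled SD). Across the 9 pairings of a stimulated with an unprimed mural array the difference ran from 5.52 to 7.11. This corresponded to a ratio of 84.9 of the antilogged means. Signal in the low group that does not come from Comp RNA would make this ratio smaller than the ratio of RNA amounts. Among all transcripts, 11.1% had the 3 stimulated mural arrays above the 3 unprimed mural arrays without overlap. The next largest difference of any transcript was 5.48, and the 95th percentile over all transcripts was 0.43.

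Comp was also higher in mural than in cumulus cells of stimulated mice, by 6.25 ± 0.34 on the log2 scale, with pairings from 5.24 to 6.89. Without overlap, 18.1% of all transcripts had higher values on the stimulated mural than on the stimulated cumulus arrays. The next largest difference was 5.79. This comparison shares the stimulated mural arrays with the preceding one. The arrays measured RNA from bulk samples, so a larger share of cells with Comp RNA and more Comp RNA per cell cannot be told apart.

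The differences among the low groups were small beside those of the stimulated mural cells. Stimulated minus unprimed cumulus cells gave 0.39 ± 0.34 on the log2 scale, and individual pairings ran from -0.18 to 1.19, with 7 of 9 above 0. Unprimed mural minus unprimed cumulus cells gave 0.24 ± 0.34, and pairings ran from -0.39 to 0.91, with 5 of 9 above 0. Both differences were within their replicate spread. Among all transcripts, 91.7% had a lower cumulus difference and 84.7% a lower difference between the unprimed groups. The 95th percentiles were 0.51 and 0.54. The difference seen in mural cells thus exceeded the cumulus difference by 6.02 ± 0.48 (log2), where the next largest value of any transcript was 5.21.

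**Figure D2:**
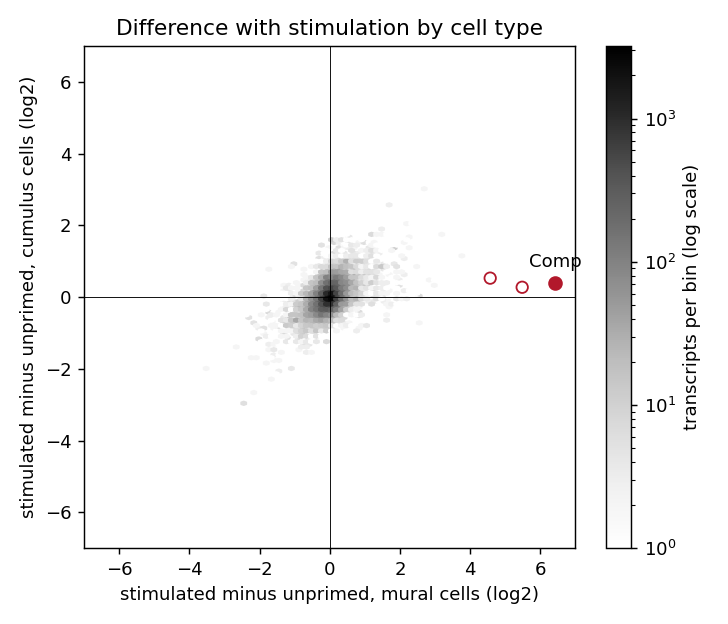
Stimulated minus unprimed group means on the log2 scale in mural cells (x axis) and cumulus cells (y axis) for all transcripts, with grey shading for the number of transcripts per bin on a log scale. The filled red point is Comp, at 6.41 in mural and 0.39 in cumulus cells, and the open red circles are ENSMUST00000024916 and ENSMUST00000020064.

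The strength of the separation was described by the distance between the lowest stimulated mural array and the highest of the other 9 arrays. For Comp this distance was 5.24 on the log2 scale, set by stimulated mural replicate 2 and stimulated cumulus replicate 1. It was the largest of all 41115 transcripts, ahead of 4.27 and 2.84 for the next in line. A separation of any size occurred in 2070 transcripts, or 5.03% of all (1267 if transcripts with identical values count once). Among these distinct sets the median distance was 0.14, and 80 exceeded 1, 10 exceeded 2, and 2 exceeded 3. Comp ranked first in this distance when any 1 of the 12 arrays was left out, and also after renewed quantile normalization, median centring or cyclic loess.

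Comp was among the strongest signals of the stimulated mural arrays. It ranked 224th, 406th and 198th of 41115 transcripts on replicates 1, 2 and 3, and 258th by its group mean (170th if transcripts with identical values count once). That placed it above 99.0% to 99.5% of transcripts on each array. Probe sets differ in how strongly they bind their target, so this rank orders signals and not RNA amounts. The highest transcript value on an array lay between 14.61 and 14.71, so the value of Comp stayed below the highest values. Whether its signal was compressed at this level was not tested. On the other 9 arrays its rank ran between 18757 and 26954.

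The transcripts that reached the stimulated mural level of Comp were otherwise high in the other groups too. For each of the other 257 such transcripts the highest mean of the remaining 3 groups was taken. These ranged between 11.03 and 14.67 with a median of 13.94, whereas the corresponding value of Comp was 6.94. Only 2 of the 257 stayed below 12 in all remaining groups. Comp thus combined a signal in the top 1% of stimulated mural cells (0.627% by rank) with one near the middle of the distribution elsewhere.

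**Figure D3:**
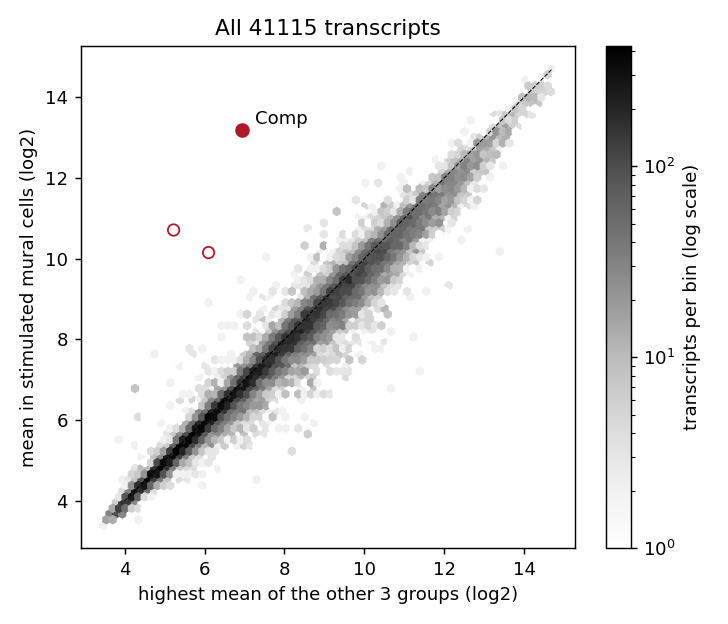
Mean in stimulated mural cells (y axis) against the highest mean of the other 3 groups (x axis), both in log2, for all transcripts, with grey shading for the number of transcripts per bin on a log scale and a dashed line of equal values. Comp, filled red, lies at 13.19 against 6.94, and the open red circles mark ENSMUST00000024916 and ENSMUST00000020064.

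The low values of Comp were not at the bottom of the scale. On the 9 arrays outside stimulated mural cells, Comp was above 34.4% to 54.4% of transcripts. It was below the array median on 8 of these 9 arrays and below the 40th percentile, the level used as a filter on low values, on 6. The exception above the median was stimulated cumulus replicate 1. The trpn control probe sets detect a bacterial gene with no mouse target and had means of 4.42 to 4.62 on these arrays. Comp lay above those means by 1.85 to 3.02 on the log2 scale. The level elsewhere was thus near the filter level, a percentile that is no measure of background, and above these controls. The controls are only 3 probe sets, and probe sets differ in signal. They therefore cannot settle whether the level elsewhere was near background for the probes of Comp. Whether the remaining signal comes from Comp RNA or from binding of other RNA to its probes was not tested.

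Replicates of Comp were more spread than those of most transcripts of similar level. In stimulated mural cells its SD of 0.33 exceeded that of 98.1% of the 363 transcripts whose group mean lay within 0.5 of its own, for which the median SD was 0.09. The same share was 98.0% in unprimed mural, 98.7% in stimulated cumulus and 85.0% in unprimed cumulus cells. In unprimed mural cells replicate 2 set the spread, at 7.30 against a mean of 6.52 for the other two arrays. In stimulated cumulus cells replicate 1 set it, at 7.59 against 6.61. Without unprimed mural replicate 2 the mural difference of Comp was 6.67, and without stimulated cumulus replicate 1 the cumulus difference was 0.06.

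Likeness to Comp was measured by Pearson's r of the log2 values over the 12 arrays, among the 16809 distinct transcripts, Comp included, that lay above the filter level on 3 or more arrays. As the 12 points fall into a high group and a low group, r mainly measures how cleanly a transcript steps up in stimulated mural cells. A plain step gave r = 0.991 with Comp. Values over 0.9 occurred in 166 transcripts and values under -0.9 in 139. The 10 most like Comp had r between 0.979 and 0.996, and the eleventh followed closely at 0.978.

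The transcript most like Comp was ENSMUST00000024916 (r = 0.996). It had log2 values of 11.07, 10.23 and 10.83 in stimulated mural cells, 4.67, 5.96 and 5.04 in unprimed mural cells, 5.51, 4.49 and 4.77 in stimulated cumulus cells, and 4.71, 4.58 and 4.66 in unprimed cumulus cells. As in Comp, unprimed mural replicate 2 and stimulated cumulus replicate 1 were highest in their groups, which the choice by r over the same arrays favours. In stimulated mural cells replicate 1 was highest, whereas Comp was highest on replicate 3. The second was ENSMUST00000020064 (r = 0.991). Its values were 10.58, 9.69 and 10.19 in stimulated mural cells, 5.56, 5.80 and 5.39 in unprimed mural cells, 6.84, 5.76 and 5.70 in stimulated cumulus cells, and 5.85, 5.30 and 5.57 in unprimed cumulus cells. It too was highest on replicate 1 in stimulated mural cells. The excess of unprimed mural replicate 2 over the other arrays of its group equalled 0.687% of the stimulated mural signal for Comp on the antilogged scale, against 1.92% for ENSMUST00000024916 and 0.946% for ENSMUST00000020064. For stimulated cumulus replicate 1 it was 0.994% for Comp, against 1.21% for ENSMUST00000024916 and 5.27% for ENSMUST00000020064. Why these arrays were higher than the others of their groups was not tested.

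The remaining members of this list of 10 had smaller differences. Over all 10, stimulated minus unprimed mural cells ranged from 1.37 to 5.48 on the log2 scale with a median of 2.14, against 6.41 for Comp. In cumulus cells the corresponding differences ranged from -0.09 to 0.53 with a median of 0.01. The stimulated mural means ranged from 6.99 to 10.71, all below the 13.19 of Comp, and the means of the other groups were below 7 in all 10.

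**Figure D4:**
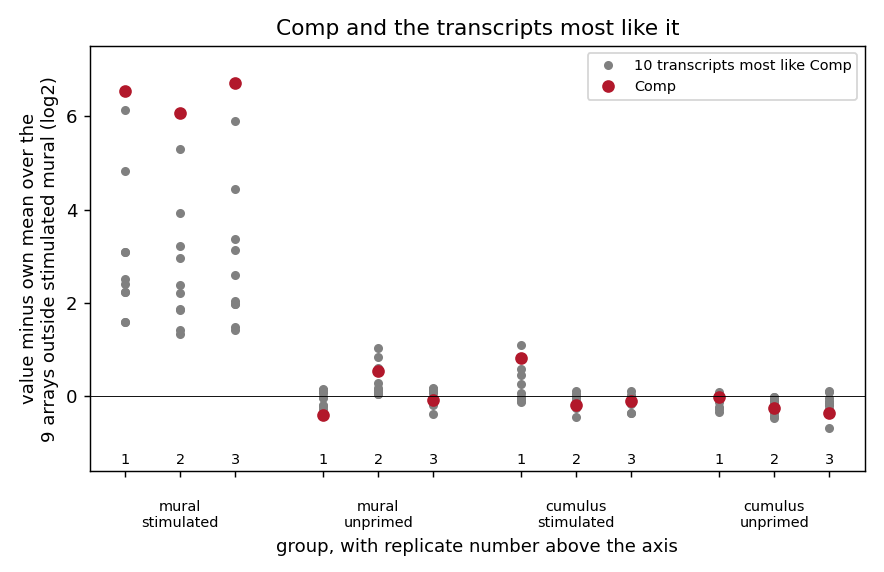
Log2 values of Comp (red) and of the 10 transcripts most like it (grey) on each array, each minus its own mean over the 9 arrays outside stimulated mural cells (y axis), by group and replicate (x axis). Comp lies above all 10 on each stimulated mural array.

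In the array measures compared, added controls and 3′ to 5′ balance, the stimulated mural group overlapped unprimed mural arrays. The mean of 24 bacterial control probe sets (dap, lys, phe and thr), commonly added before amplification, was 7.57 to 7.75 in stimulated mural, 7.23 to 7.84 in unprimed mural, 8.43 to 8.79 in stimulated cumulus and 7.59 to 7.80 in unprimed cumulus arrays. The stimulated cumulus arrays were thus the ones that stood apart. With this mean as a covariate the cumulus difference of Comp was -0.62 ± 0.68 and the difference between stimulated mural and cumulus cells was 7.33 ± 0.71. The mural difference was 6.22 ± 0.33. As the stimulated cumulus arrays do not overlap the others in this mean, their group and the covariate are largely confounded. Gapdh control values at the 3′ end exceeded those at the 5′ end, a measure that depends on RNA integrity and amplification, by 1.48 to 2.05 in stimulated mural arrays and by 1.37 to 2.34 on the other 9. For actin this excess was 0.75 to 0.83 in stimulated mural and 0.74 to 0.88 in unprimed mural arrays. It was 0.87 to 1.17 in stimulated cumulus arrays, without overlap with stimulated mural arrays, and 0.75 to 1.01 in unprimed cumulus arrays. A part of this balance in the differences of Comp was not tested. Markers of mural, cumulus and other cell types could not be looked up by name, so the cell type labels were not checked here and the part of other cell types in the level of Comp was not tested.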

How the data were processed

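RNA was measured on 12 arrays. Each started from 20 ng of total RNA, and its repeated amplification, per the labels' protocols, can alter relative levels. The values are log2, deposited for each probe set and made with RMA in the affy package per the submitters' processing notes. RMA quantile normalizes the arrays, so a shift common to most transcripts is lost. For its version, the array type, the probe set annotation and the genome build nothing is given in the sources used here. Array medians were 7.30 to 7.38, and precision is limited by how many arrays there are. At most 0.0632% of values were identical between any 2 arrays.

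Comp and the planned lists were chosen with earlier results of these data known. Levels, ranks and correlations were computed in Python 3.11.15 with pandas 2.3.3 over 41115 transcripts, without the 64 controls. The likeness list took transcripts that exceeded the 40th percentile of their array on 3 or more of 12 arrays (25917, of which 16809 distinct). The stimulated mural arrays alone suffice to pass this filter. Covariate and block fits were least squares on Comp alone. Renewed normalization used limma 3.58.1. The measures of separation and likeness were tested on simulated data.

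The RefSeq table held 0 Ensembl identifiers, so 0 transcripts were matched to a gene. The planned counts over 18 lists of genes and the promoter motifs were therefore not run, and by the naming rule only 2 of the 10 transcripts most like Comp are identified.

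Replicate numbers are shared between groups, but the labels do not say that they mark shared pools. Over transcripts that passed the filter, deviations of same-numbered arrays correlated at 0.11, 0.32 and 0.42 between unprimed mural and cumulus cells, all above 0.1 (over all transcripts at 0.06, 0.29 and 0.37). In each of the other 3 comparisons at least 1 correlation was below 0.1. Over transcripts that passed the filter they were -0.09, -0.54 and -0.48 between stimulated and unprimed mural cells. They were 0.19, 0.14 and -0.13 between stimulated mural and cumulus cells, and 0.21, 0.04 and 0.12 between stimulated and unprimed cumulus cells. In this balanced design a block by number leaves the differences as they are.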

Additional observations from a re-analysis of the deposited data

How the results depend on the processing

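Renewed quantile normalization, median centring and cyclic loess moved all 4 group means and all 5 differences of Comp by less than the spread between replicates. With the mean of the added bacterial controls as a covariate, the difference between stimulated and unprimed mural cells was 6.22. That between stimulated mural and stimulated cumulus cells was 7.33, and that between stimulated and unprimed cumulus cells was -0.62. Unprimed mural minus unprimed cumulus cells gave 0.49, and the excess of the mural over the cumulus difference was 6.84. With the replicate number as a block the differences stayed at their values, among them 6.41 in mural cells, since the design is balanced, and the residual SD was 0.46 against 0.42. When 1 array was left out, the group means ranged from 13.06 to 13.37 in stimulated mural, 6.52 to 6.997 in unprimed mural, 6.61 to 7.12 in stimulated cumulus and 6.45 to 6.63 in unprimed cumulus cells. The differences then ranged from 6.20 to 6.67 with stimulation in mural cells, 6.07 to 6.58 between stimulated mural and cumulus cells, 0.06 to 0.57 with stimulation in cumulus cells, -0.02 to 0.45 between unprimed mural and cumulus cells, and 5.81 to 6.34 for the excess of the mural difference. The stimulated mural rank ranged from 206 to 308, and was 170 with identical sets counted once.

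The count of 2070 separated transcripts was 1267 with identical sets counted once and 2097 to 2941 when 1 array was left out, which eases the criterion. These alternatives for the count were chosen after seeing the data. The list of 10 most like Comp depended on the measure. Spearman's rho kept 3 of the 10 and the 4 group means kept 0, and leaving out 1 array kept 6 to 10, with 6 each without stimulated mural replicate 1 and without replicate 3. The r of the named transcripts was 0.995 to 0.998 and 0.989 to 0.995 with 1 array left out, and their rho was 0.895 and 0.874. By rho ENSMUST00000024916 came in place 6 and ENSMUST00000020064 in place 9, and by the 4 group means in places 24 and 30. The alternatives for the gene lists were not run. Values near the filter level limit how exact the sizes of the differences are.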

Other observations

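The opposite pattern, with all 3 stimulated mural arrays below the other 9, occurred in 2422 of the 41115 transcripts. This was more than the 2070 in the direction of Comp, and both counts include transcripts with identical values. Without a threshold on the distance, distinct sets were not counted for the opposite pattern. Its largest distance was 1.98 on the log2 scale against 5.24 for Comp. Distances over 1 occurred in 27 distinct transcripts in this direction and in 80 in the direction of Comp.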
